A study of Mus musculus with 20 samples.

Results

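Hippocampal RNA levels are described for Mfsd2a and 9 other genes of the blood-brain barrier's transport system, which are Slc2a1, Abcb1a, Slco1a4, Slco1c1, Slc7a5, Slc16a1, Abcg2, Slc22a8 and Bsg. These 10 genes are a fixed list of brain endothelial transporters and 1 transporter partner, out of 49671 genes in the count tables, and all 10 were among the 18427 genes with enough counts to be tested. The list was drawn up because Mfsd2a had stood out in earlier results of the same libraries, in the comparison of tumour-bearing with control mice, so its group levels are given as a description with no test. The question was whether Mfsd2a differed between groups alone or together with the other barrier transporters.

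The study asked how checkpoint antibodies affect the brain. Bulk RNA sequencing was done on 1 hippocampus from each of 20 wild-type males, 10 to 12 weeks old, with 5 mice in each of 4 groups. Control mice carried no tumour and received isotype-matched antibody. Mice of the group named ICI (immune checkpoint inhibitors) carried no tumour and received 1 mg of anti-CTLA-4 antibody at each of 3 injections a week together with 200 µg of anti-PD-1 antibody at each of 2 injections a week. Melanoma mice carried D4M-3A.UV2 tumours, a syngeneic mouse melanoma line injected into the skin on both sides at 500000 cells per injection 1 week before antibody treatment, and received isotype-matched antibody. Mice of the melanoma plus ICI group carried the same tumours and received both checkpoint antibodies, for 3 weeks. All brains were collected 72 hours after the final dose. The tumours lay in the skin, so the brain samples model effects at a distance and not a brain metastasis.

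The blood-brain barrier is formed by endothelial cells sealed by tight junctions, and nutrients cross them through membrane carriers while efflux pumps return drugs and other foreign compounds to the blood. Mfsd2a is the endothelial carrier for lysophosphatidylcholine that holds omega-3 fatty acids such as docosahexaenoic acid, and it is also known for keeping caveolae-mediated vesicle traffic low in brain endothelium. Slc2a1 (GLUT1), Slc7a5 (LAT1) and Slc16a1 (MCT1) bring in glucose, large neutral amino acids and monocarboxylates, and the barrier shares several of these proteins with astrocytes, neurons or choroid plexus.

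The promoters of Mfsd2a and Slc2a1 are shown because these were the 2 members whose melanoma and control libraries did not overlap. They come from the RefSeq promoter table of mouse build GRCm38.p6, which covered 8 of the 10 members, and each runs from 250 bases before to 50 bases after the annotated start, 5′ to 3′ on the gene's strand. Capitals mark ACGTG, a form of the core letters of the hypoxia response element, searched on both strands. The Mfsd2a window lies at chr4:122961139-122961438 on the minus strand, and the Slc2a1 window at chr4:119108495-119108794 on the plus strand.
Mfsd2a: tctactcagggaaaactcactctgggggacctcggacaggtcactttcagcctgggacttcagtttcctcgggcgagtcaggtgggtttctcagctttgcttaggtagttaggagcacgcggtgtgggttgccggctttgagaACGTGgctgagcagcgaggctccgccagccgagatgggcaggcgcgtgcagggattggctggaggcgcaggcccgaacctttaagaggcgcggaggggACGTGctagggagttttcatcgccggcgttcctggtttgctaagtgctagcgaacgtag
Slc2a1: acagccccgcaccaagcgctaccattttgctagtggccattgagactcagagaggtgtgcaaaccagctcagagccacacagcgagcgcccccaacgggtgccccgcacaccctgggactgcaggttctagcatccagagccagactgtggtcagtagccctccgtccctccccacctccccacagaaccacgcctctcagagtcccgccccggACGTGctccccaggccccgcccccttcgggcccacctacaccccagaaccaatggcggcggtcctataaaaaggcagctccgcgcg
ACGTG was found 2 times in the Mfsd2a window and 1 time in the Slc2a1 window, and also in the windows of Slc16a1 and Slco1c1. So 4 of 8 matched members held it, in 4 of their 10 windows. Of 32851 mouse promoter windows of the same length, 19.6% held it. The palindromic glucocorticoid response element was in no member's window and in 0.475% of all windows. A match describes letters only, and the search says nothing of binding.

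Total counts lay between 21990624 and 25735149 per library. All 10 hippocampal marker genes were detected, and their score, the mean log2 CPM of a list in a library, lay between 4.40 and 7.01. CPM means counts per 1000000 of the library size scaled by edgeR's TMM method. Some libraries differed in tissue content. Melanoma replicates 1, 3 and 5 and melanoma plus ICI replicate 3 had striatum scores of 5.50, 6.77, 5.97 and 5.70, against 2.94 to 3.78 in the other 16 libraries. Summed over the 8 striatal markers, levels ranged from 186 to 242 CPM in control, 197 to 234 CPM under ICI, 217 to 1398 CPM with melanoma and 168 to 779 CPM in melanoma plus ICI mice, and no marker was at 0 throughout. The score of 12 choroid plexus markers ranged from 0.64 to 6.43 in control, 0.03 to 4.84 under ICI, 0.71 to 5.40 with melanoma and 1.09 to 6.55 in melanoma plus ICI libraries. Of 5 melanocyte markers, 2 had enough counts to be tested, and their summed level was at most 2.84 CPM in any library.

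The members differed widely in abundance. On the scale of transcripts per 1000000 (TPM), which accounts for gene length, the means over 20 libraries were 814 for Bsg, 123 for Slc2a1, 77.0 for Slc7a5, 42.2 for Slco1c1, 32.8 for Slc16a1, 30.3 for Mfsd2a, 23.4 for Slco1a4, 22.8 for Abcb1a, 20.2 for Slc22a8 and 7.29 for Abcg2. The SD over libraries was 7.49 TPM for Mfsd2a and 3.72 TPM for Slc16a1, so these neighbours in the order did not differ beyond their spread, and the same held for Mfsd2a and Slco1a4, at 4.01 TPM, and for Slco1a4, Abcb1a and Slc22a8. Bsg stood far above all other members in every library, with a minimum of 653 TPM.

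Mfsd2a (ENSMUSG00000028655, GRCm38 chr4:122946850-122961188, minus strand, protein-coding) was highest in the melanoma group. Its levels were 16.4, 14.7, 16, 15 and 15.3 CPM in control replicates 1 to 5, and 17.9, 17.7, 16.4, 16.3 and 15.2 CPM in ICI replicates 1 to 5. They were 27.2, 22.1, 22.3, 25.1 and 26.6 CPM in melanoma replicates 1 to 5, and 17.5, 16.5, 24.5, 15.6 and 13.2 CPM in melanoma plus ICI replicates 1 to 5. Every melanoma library lay above every control and ICI library, and in the melanoma plus ICI group replicate 3 lay within the melanoma range. Of the other 4 in that group, replicate 4 lay inside the control range, replicates 1 and 2 above it and replicate 5 below it. Behind these values are 297 to 646 counts per library.

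The group means of Mfsd2a were 15.5 ± 0.70 CPM in control, 16.7 ± 1.11 CPM under ICI, 24.6 ± 2.36 CPM with melanoma and 17.4 ± 4.23 CPM in melanoma plus ICI mice (SD, n = 5 each). The order from low to high was control, ICI, melanoma plus ICI and melanoma, and the ranges of the first 3 overlapped. The fitted log2 fold change was 0.67 (SE 0.12) for melanoma against control, a 1.59-fold higher level, and -0.50 (SE 0.12) for melanoma plus ICI against melanoma. For ICI against control it was 0.11 (SE 0.12). These values share the melanoma or control libraries with the comparison that led to the choice of the gene.

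**Figure D1:**
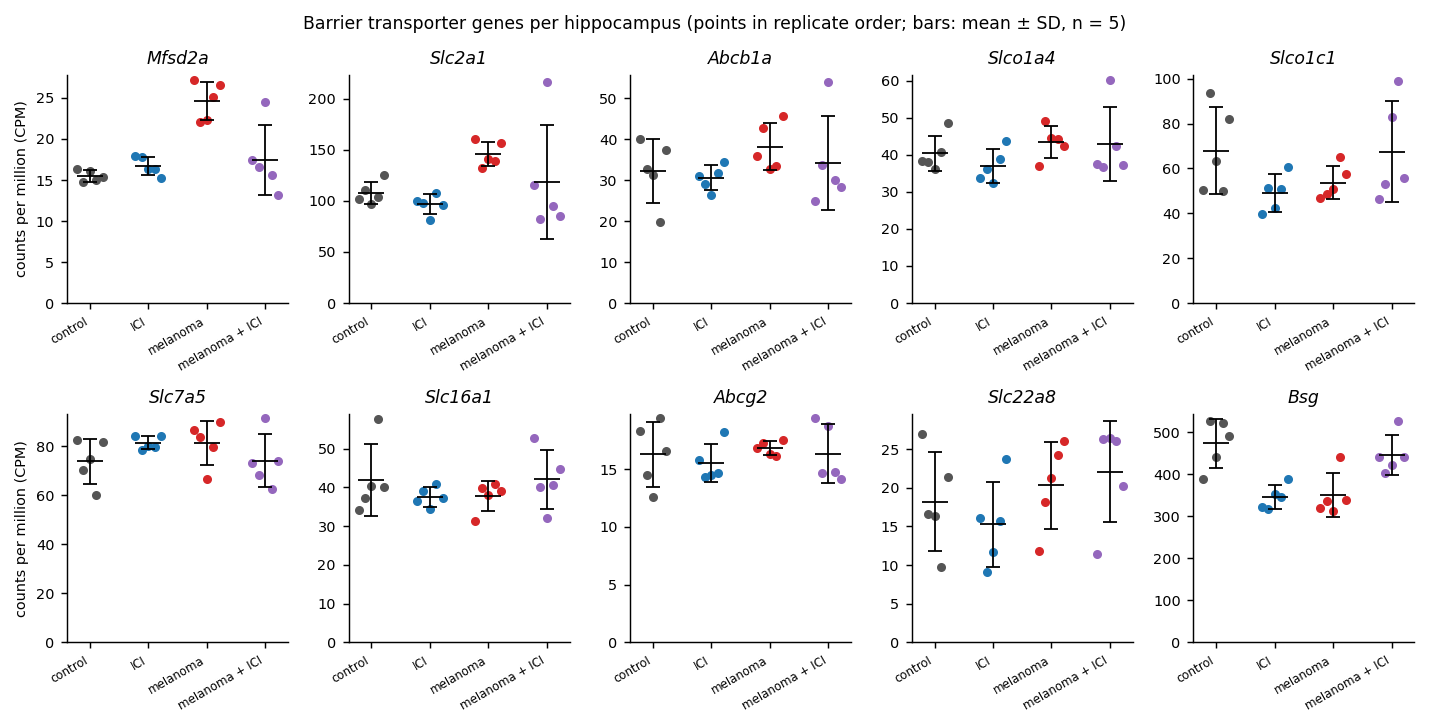
Level of the 10 members in every hippocampus, in CPM on the vertical axis starting at 0, by group on the horizontal axis; points are libraries in replicate order, bars are the mean ± SD of 5 libraries. Mfsd2a is at 22.1 to 27.2 CPM in melanoma and at 14.7 to 16.4 CPM in control libraries, while most other members overlap between groups.

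Slc2a1 (ENSMUSG00000028645, chr4:119108711-119137983, plus strand), which encodes the glucose carrier GLUT1, was the member whose levels followed those of Mfsd2a most closely. Its levels were 101, 110.3, 97.4, 103.5 and 125 CPM in control, and 100.3, 98.0, 81.1, 108 and 96.4 CPM in ICI replicates 1 to 5. They were 161, 133, 141, 139 and 156 CPM in melanoma, and 116, 81.8, 216, 94.6 and 85.2 CPM in melanoma plus ICI replicates 1 to 5. As for Mfsd2a, all 5 melanoma libraries lay above all control libraries, and melanoma plus ICI replicate 3 alone in its group reached the melanoma levels, here exceeding them.

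The means of Slc2a1 were 108 ± 10.9 CPM in control, 96.8 ± 9.86 CPM under ICI, 146 ± 12.0 CPM with melanoma and 119 ± 56.0 CPM in melanoma plus ICI mice (SD, n = 5 each). The log2 fold change of melanoma against control was 0.44 (SE 0.19), with an adjusted p of 0.877 by edgeR's quasi-likelihood test after Benjamini-Hochberg adjustment over all tested genes, so the difference did not pass. Over 31 other settings its adjusted p ranged from 0.124 to 1.00. Melanoma libraries lay above control libraries without overlap for 2 of 10 members, Mfsd2a and Slc2a1, and for 0.554% of all tested genes. Nothing is read from that count, since Mfsd2a was chosen on this contrast.

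Striatal content differed between the same groups. All 8 striatal markers were higher in melanoma than in control, with a median log2 fold change of 2.32. With the striatum score as a covariate, the log2 fold change of melanoma against control was 0.52 for Mfsd2a and 0.16 for Slc2a1. Without the 4 libraries rich in striatal transcripts it was 0.60 and 0.33. Melanoma replicates 2 and 4, with striatum scores of 3.12 and 3.23, had 22.1 and 25.1 CPM of Mfsd2a and 133 and 139 CPM of Slc2a1, above the highest control libraries at 16.4 and 125 CPM.

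In 4 of 5 melanoma plus ICI mice, both genes lay below every melanoma library, at 13.2 to 17.5 CPM for Mfsd2a and 81.8 to 116 CPM for Slc2a1. The log2 fold change of Slc2a1 for melanoma plus ICI against melanoma was -0.30 (SE 0.19, adjusted p = 0.825 by edgeR's quasi-likelihood test). Replicate 3 decided the size of this value. Without it, Slc2a1 was at -0.62 (adjusted p = 0.0394 by edgeR's quasi-likelihood test, the lowest of 31 settings that reached up to 0.987) and passed the threshold, as 12 of 18596 genes tested without that library did (0.0645%), against 0 genes with it. Mfsd2a was then at -0.64, given without a test. That library had the highest level of Slc2a1, Abcb1a, Slco1a4 and Slc7a5 among all 20 libraries, at 216, 54.1, 60.2 and 91.6 CPM. It also had the highest endothelial score, 4.26, and the lowest hippocampus score, 4.40. Over the whole groups, melanoma plus ICI against melanoma had 8 of 8 striatal (median log2 fold change -1.21), 8 of 8 oligodendrocyte (-0.37) and 10 of 10 hippocampal markers (-0.42) lower, and 12 of 12 choroid plexus (1.52), 10 of 10 meningeal (0.67) and 15 of 20 endothelial genes (0.11) higher. The part of tissue content in these levels was not tested.

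The remaining nutrient carriers differed less between groups. Slc7a5 (chr8:121881150-121907694, minus strand), the large neutral amino acid carrier LAT1, had means of 73.9 ± 9.27, 81.3 ± 2.68, 81.4 ± 9.04 and 74.0 ± 10.8 CPM in control, ICI, melanoma and melanoma plus ICI mice (SD, n = 5 each). Its log2 fold change for melanoma against control was 0.14 (SE 0.10). Slc16a1 (chr3:104638668-104658462, plus strand), the lactate and ketone body carrier MCT1, had means of 41.9 ± 9.17, 37.6 ± 2.53, 37.8 ± 3.79 and 42.0 ± 7.53 CPM in the same order, with a log2 fold change of -0.15 (SE 0.13). For both genes the ranges of all 4 groups overlapped, and the difference between melanoma and control was smaller than the SD of the controls. Without control replicate 4 it was 0.07 for Slc7a5 and -0.01 for Slc16a1 on the log2 scale.

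Slco1c1 (chr6:141524368-141570177, plus strand) encodes OATP1C1, the carrier of the thyroid hormone thyroxine. Its levels were 50.5, 93.6, 63.4, 49.8 and 82.0 CPM in control, 39.7, 51.2, 42.2, 50.9 and 60.8 CPM in ICI, 46.8, 48.4, 50.9, 65.0 and 57.4 CPM in melanoma, and 46.6, 53.1, 82.9, 98.9 and 55.9 CPM in melanoma plus ICI replicates 1 to 5. The highest values were in control replicates 2 and 5 and in melanoma plus ICI replicates 3 and 4, and all groups overlapped. Those 4 libraries had choroid plexus scores of 6.43, 5.88, 5.57 and 6.55, the 4 highest of the 20.

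The log2 fold change of Slco1c1 was -0.34 (SE 0.20) for melanoma against control, or -0.20 without control replicate 2, and -0.47 (SE 0.20) for ICI against control. With the choroid plexus score as a covariate these became -0.17 and -0.36. The change in the ICI effect with tumour, an interaction given as the ICI difference with a tumour minus the ICI difference without one, was 0.80 (SE 0.29) and became 0.43 with the covariate. None of these passed edgeR's quasi-likelihood test, with adjusted p = 0.877, 0.766 and 0.476 without the covariate.

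The efflux and organic anion transporters showed no difference past the threshold. Abcb1a (chr5:8660077-8748575, plus strand), which encodes the drug efflux pump P-glycoprotein, had means of 32.2 ± 7.85, 30.6 ± 3.05, 38.2 ± 5.78 and 34.3 ± 11.5 CPM in control, ICI, melanoma and melanoma plus ICI mice (SD, n = 5 each). Its log2 fold change for melanoma against control was 0.24 (SE 0.19), and 0.10 without control replicate 4. Exons of Slc2a1 and Abcb1a overlap Gm12868 and Gm42686 on the opposite strand, which held 0.301% and 0.713% as many counts, and whether strand was used in counting is not given in the sources used here. The near-identical gene Abcb1b held 15.8% as many counts, and how reads shared with Abcb1a were assigned is likewise not given. The level of Abcb1a is therefore uncertain by an amount that these counts cannot give.

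Abcg2 (chr6:58584523-58695676, plus strand), which encodes the efflux pump BCRP, lay between 12.6 and 19.5 CPM over all libraries, with a log2 fold change of 0.05 (SE 0.12) that was -0.04 without control replicate 3. Slco1a4 (chr6:141805440-141856199, minus strand), which encodes the organic anion carrier OATP1A4, had means of 40.3 ± 4.82 CPM in control and 43.5 ± 4.40 CPM in melanoma mice, a log2 fold change of 0.11 (SE 0.13) that was 0.05 without melanoma replicate 2. Slc22a8 (chr19:8591254-8611834, plus strand), which encodes the organic anion transporter OAT3, ranged from 9.14 to 27.0 CPM, with a log2 fold change of 0.16 (SE 0.29) that was -0.01 without control replicate 4. For all 4 of these genes, melanoma and control libraries overlapped in CPM, and levels relative to the endothelial score are given below. The sign of the log2 fold change turned in some other settings for Abcg2 and Slc22a8. The highest values in other settings were 0.57 for Abcb1a, 0.19 for Abcg2, 0.33 for Slco1a4 and 0.58 for Slc22a8.

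Bsg (ENSMUSG00000023175, chr10:79704491-79711969, plus strand) had a different order of groups. It encodes basigin, the membrane glycoprotein that escorts monocarboxylate transporters such as MCT1 to the cell surface, and many cell types besides endothelium express it. Its levels were 389.5, 527, 439.9, 521 and 492 CPM in control and 322, 318, 352, 345 and 389 CPM in ICI replicates 1 to 5. They were 320.4, 337, 313, 441 and 339 CPM in melanoma and 440.1, 404, 422, 528 and 441 CPM in melanoma plus ICI replicates 1 to 5. Every ICI library lay below every control library, the closest pair being 389.2 and 389.5 CPM, and 4 of 5 melanoma libraries did so too, while the melanoma plus ICI libraries, at 404 to 528 CPM, overlapped the controls.

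The means of Bsg were 474 ± 58.3 CPM in control, 345 ± 28.5 CPM under ICI, 350.1 ± 51.8 CPM with melanoma and 447 ± 47.7 CPM in melanoma plus ICI mice (SD, n = 5 each). The log2 fold change was -0.46 (SE 0.11) for ICI against control, -0.44 (SE 0.11) for melanoma against control and 0.35 (SE 0.11) for melanoma plus ICI against melanoma. The interaction was 0.81 (SE 0.15). By edgeR's quasi-likelihood test the adjusted p values were 0.766, 0.642, 0.825 and 0.253, so none passed. For the interaction the call depended on the tool, since DESeq2 gave an adjusted p of 0.00183 and limma voom, here with weights for the quality of each library, 0.0408, and over all settings edgeR included it ranged from 0.00183 to 0.696.

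All 12 choroid plexus markers had a lower mean in ICI and in melanoma than in control, with median log2 fold changes of -1.39 and -1.51, and their interaction had a median of 2.93. None of the 12 passed edgeR's quasi-likelihood test, DESeq2 or limma voom in any contrast, and 5 had an unadjusted p under 0.05 in the interaction, all positive, where 5.99% of all tested genes were positive with such a p. Summed over the list, levels ranged from 39.9 to 6447 CPM in control, 26.1 to 2293 CPM under ICI, 48.9 to 3787 CPM with melanoma and 73.8 to 6851 CPM in melanoma plus ICI libraries, and no marker was at 0 throughout. With the choroid plexus score as a covariate, the log2 fold change of Bsg was -0.43 for ICI against control, -0.40 for melanoma against control and 0.73 for the interaction. Other lists also had positive interactions, with 19 of 20 endothelial genes (median 0.41), 8 of 8 caveolae genes (0.48), 5 of 5 smooth muscle genes (0.60) and 10 of 10 meningeal genes (1.15), while 10 of 10 hippocampal (-0.59) and 8 of 8 striatal genes (-1.27) were negative. DESeq2 called the endothelial genes Cldn5, Egfl7 and Sox18 for the interaction, and limma voom called Cldn5, where DESeq2 called 47 genes (0.255% of those tested) and limma voom 19 (0.103%). The part of these cell types in the value of Bsg was not tested.

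Across the 6 contrasts, 0 of 10 members had an adjusted p under 0.05 by edgeR, as did 0% of the 18427 tested genes. The 9 members other than Mfsd2a were also counted at an unadjusted p under 0.05, since Mfsd2a was chosen on melanoma against control and its tests against those libraries support nothing. For melanoma against control, 1 of the 9 was higher (Slc2a1) and 1 lower (Bsg), where 2.7% of all tested genes were higher, 2.41% lower and 5.11% under that limit in either direction. For ICI against control 2 members were under it, both lower (5.23% of genes in either direction and 3.15% lower). For melanoma plus ICI against melanoma 1 was higher (5.5% of genes in either direction, 2.63% higher and 2.87% lower), and for the interaction 2 were higher (10.3% of genes in either direction). They were 2 members, both higher, for melanoma plus ICI against ICI (8.63% of genes in either direction and 4.12% higher) and 0 members for melanoma plus ICI against control (2.38% of genes). Among these 9 members, DESeq2 and limma voom each called Bsg for the interaction, as they did 0.255% and 0.103% of all tested genes, and none in the other 5 contrasts.

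Bsg was the 1 member whose ICI libraries lay below the controls without overlap, as 0.467% of tested genes did. It was also the 1 member whose melanoma plus ICI libraries lay above the ICI libraries without overlap, as 0.586% of tested genes did.

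**Figure D2:**
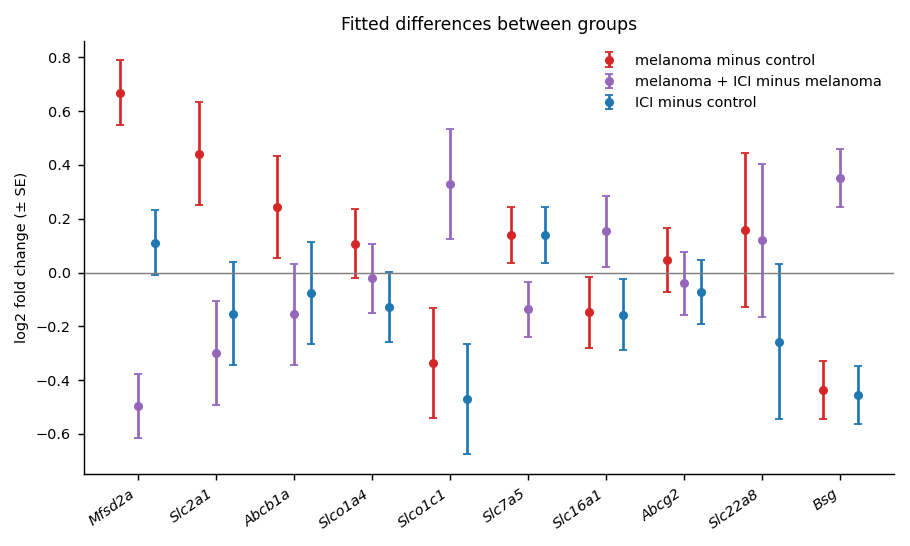
Fitted log2 fold change (vertical axis, ± SE) of each member (horizontal axis) for melanoma against control, melanoma plus ICI against melanoma, and ICI against control. Mfsd2a is at 0.67 and Slc2a1 at 0.44 for melanoma against control and both are below 0 for melanoma plus ICI against melanoma, whereas Bsg is at -0.44 and 0.35; contrasts that share libraries are not independent.

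The other 9 members thus did not share one direction. For melanoma against control, 7 of 10 members had a positive log2 fold change, with a median of 0.12, and 6 of the 9 without Mfsd2a, with a median of 0.11, beside a median of -0.01 over all tested genes, of which 48.0% were positive. Among 29 other barrier transport genes, 15 were positive, the median was 0.03, and 0 passed edgeR's quasi-likelihood test, DESeq2 or limma voom, while 2 had an unadjusted p under 0.05, both lower. The highest values in that list were 0.49 (SE 0.28) for Atp10a, a phospholipid flippase gene, and 0.20 (SE 0.12) for Slc7a1, the cationic amino acid carrier. The lowest were -0.93 (SE 0.43) for Slc29a4, a monoamine transporter that choroid plexus also expresses, and -0.37 (SE 0.21) for Slc38a3, a glutamine carrier.

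Endothelial identity genes did not follow Mfsd2a. Of 20 such genes, 4 were higher in melanoma than in control, with a median log2 fold change of -0.15, and 5 had an unadjusted p under 0.05, all lower, against 2.41% of all tested genes. None passed by edgeR's quasi-likelihood test or limma voom, and DESeq2 called 1, Sox18, an endothelial transcription factor, and 0.0434% of all tested genes. With the striatum score as a covariate, 1 of the 20 was higher and the median was -0.24. Lower in the same contrast were also 12 of 12 choroid plexus, 7 of 8 microglial, 4 of 5 smooth muscle, 8 of 10 meningeal and 8 of 10 pericyte genes, while 7 of 8 oligodendrocyte and 6 of 8 neuronal genes were higher, and their part was not tested. Cldn5, the main tight junction claudin of the barrier, had 36.9 ± 13.2 CPM in control and 21.5 ± 1.24 CPM in melanoma mice (SD, n = 5), without overlap, as 0.483% of tested genes lay lower, and a log2 fold change of -0.78 (SE 0.18). Pecam1, a general endothelial adhesion molecule, had 21.2 ± 2.25 and 18.0 ± 2.55 CPM. In whole hippocampus, fewer endothelial cells and less RNA per cell cannot be told apart.

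In ICI against control, all 20 endothelial genes had a negative log2 fold change, with a median of -0.28, and 8 had an unadjusted p under 0.05, against 3.15% of all tested genes that were lower with such a p, while 0 passed by edgeR's quasi-likelihood test, DESeq2 or limma voom. Markers of some other cell types were lower in the same contrast, with 12 of 12 choroid plexus genes (median -1.39), 5 of 5 smooth muscle genes (median -0.44), 10 of 10 meningeal genes (-0.57), 5 of 5 red blood cell genes (-1.09) and 8 of 8 oligodendrocyte genes (-0.30) below 0, and 8 of 10 pericyte (-0.14) and 7 of 8 microglial genes (-0.15). Others were not, with 9 of 10 hippocampal (median 0.18), 5 of 8 neuronal (0.10), 5 of 8 striatal (0.12) and 5 of 10 astrocyte genes (0.00) above 0. Their part in the endothelial values was not tested. The endothelial score was 4.0 ± 0.13 in control, 3.71 ± 0.11 under ICI, 3.83 ± 0.12 with melanoma and 3.96 ± 0.17 in melanoma plus ICI mice (SD, n = 5 each). The log2 CPM of Mfsd2a minus this score was -0.04 ± 0.12 in control, 0.36 ± 0.19 under ICI, 0.79 ± 0.20 with melanoma and 0.14 ± 0.21 in melanoma plus ICI mice. On that scale the melanoma libraries, at 0.55 to 1.06, lay above all control and melanoma plus ICI libraries and overlapped the ICI libraries, the highest of which was at 0.57. Melanoma plus ICI replicate 3, high in Mfsd2a itself, was no longer apart, since its group reached at most 0.36. Slc2a1, Abcb1a and Slco1a4 also had all melanoma libraries above all control libraries on that scale. In that order, the lowest melanoma and highest control values were 3.13 and 2.90, 1.245 and 1.236, and 1.427 and 1.424. The remaining members overlapped, and the share of all tested genes without overlap on that scale was not counted. With the endothelial score as a covariate, the log2 fold change of Mfsd2a for melanoma against control was 0.77, that of Slc2a1 0.70 and that of Abcb1a 0.57. Relative to that score, control and melanoma means were 2.74 and 3.36 for Slc2a1, 0.97 and 1.42 for Abcb1a, and 1.33 and 1.61 for Slco1a4. Slc7a5 had 2.20 and 2.51, Abcg2 0.02 and 0.25, Slc22a8 0.12 and 0.47, and Slc16a1 1.37 and 1.41. Lower in melanoma were Slco1c1, at 2.04 and 1.91, and Bsg, at 4.88 and 4.61. The score was itself lower in melanoma, which raises every gene on that scale, and these differences were not tested.

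Genes tied to what Mfsd2a does were examined next. Of 8 genes of caveolae and vesicle transport, the traffic that Mfsd2a is known to hold down, 1 was higher in melanoma than in control, with a median log2 fold change of -0.17. The lowest were Plvap, the diaphragm protein of leaky vessels, at -0.54 (SE 0.15) without overlap between the groups, as 0.483% of all tested genes lay lower, and Cavin3 at -0.36 (SE 0.20). The highest were Cavin2 at 0.04 (SE 0.15) and Ehd2 at 0.00 (SE 0.13). Of 17 genes that handle omega-3 fatty acids and lysolipids, 6 were higher, with a median of -0.04. The extremes were Fabp7, the brain fatty acid binding protein, at -0.83 (SE 0.30), Lpcat3 at -0.10 (SE 0.10), Elovl5 at 0.06 (SE 0.09) and Mfsd2b, a related carrier of sphingosine phosphate, at 0.29 (SE 0.20).

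Of 15 genes of Wnt signalling that induces and maintains the barrier, 7 were higher, with a median of -0.02. Foxq1 was at -0.51 (SE 0.24), Foxf2 at -0.27 (SE 0.17) and Tcf7 at 0.38 (SE 0.24). In these 3 lists, 0 genes passed edgeR's quasi-likelihood test, DESeq2 or limma voom for melanoma against control, and 1 in each had an unadjusted p under 0.05, in each case lower in melanoma.

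A further list held genes known to respond to glucocorticoids or to fasting, and fasting is known to induce Mfsd2a in liver and brown fat. Of these 16 genes, 15 were higher in melanoma than in control, with a median log2 fold change of 0.51, and 9 had an unadjusted p under 0.05, all higher, against 2.7% of all tested genes. None passed by edgeR's quasi-likelihood test, DESeq2 or limma voom. For 6 of them, Plin4, Sgk1, Tsc22d3, Ddit4, Sult1a1 and Nfkbia, melanoma libraries lay above control libraries without overlap, as 0.554% of all tested genes did. Plin4, a lipid droplet coat protein, had 7.28 ± 5.31 CPM in control and 25.8 ± 12.4 CPM in melanoma mice (SD, n = 5), a log2 fold change of 1.82 (SE 0.52). Sgk1, a serum- and glucocorticoid-regulated kinase, had 65.9 ± 18.2 and 177 ± 26.4 CPM, a log2 fold change of 1.43 (SE 0.40). The lowest were Klf9, at 0.03 (SE 0.17), and Cpt1a, at -0.16 (SE 0.23).

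This list was chosen with the earlier results of these libraries known and is not independent evidence of its direction. Its score was 4.66 ± 0.14 in control, 4.62 ± 0.13 under ICI, 5.23 ± 0.10 with melanoma and 4.76 ± 0.41 in melanoma plus ICI mice (SD, n = 5 each). The melanoma libraries lay between 5.08 and 5.34, and melanoma plus ICI replicate 3, at 5.44, was the 1 library outside that group above 5.08. Melanoma replicates 1, 3 and 5 and that library are the 4 rich in striatal transcripts, and the striatal markers had a median log2 fold change of 2.32 for melanoma against control. With the striatum score as a covariate, 13 of the 16 genes were higher in melanoma, with a median of 0.27, and 5 had an unadjusted p under 0.05, against 3.89% of all tested genes in that fit. Without the 4 libraries, 12 were higher, with a median of 0.41, and 9 had such a p, against 2.76% of all tested genes. Melanoma replicates 2 and 4, low in striatal transcripts, had scores of 5.08 and 5.23, above the highest control library at 4.85. For melanoma plus ICI against melanoma, 14 of the 16 genes had a negative log2 fold change, with a median of -0.33. There, 0 passed edgeR's quasi-likelihood test or DESeq2, 4 had an unadjusted p under 0.05, all lower, against 2.87% of all tested genes, and limma voom called 4, which were Plin4, Sgk1, Tsc22d3 and Ddit4, and 0.136% of all tested genes.

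**Figure D3:**
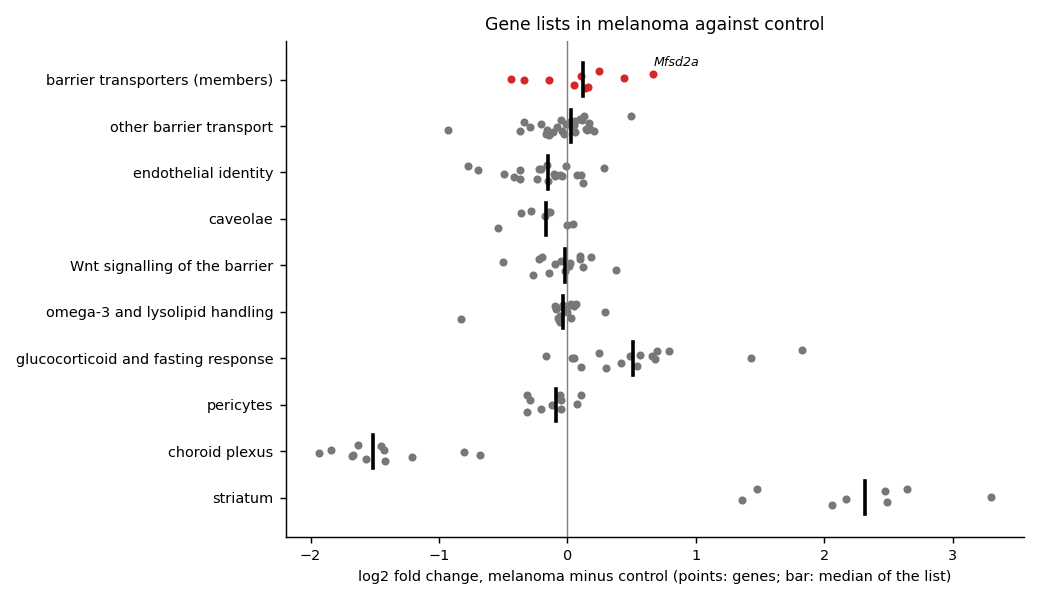
Log2 fold change of melanoma against control (horizontal axis) for every tested gene of 10 lists (rows); points are genes and black bars the median of each list. The median is 0.51 for the glucocorticoid and fasting genes, -0.15 for endothelial identity, -1.51 for choroid plexus and 2.32 for striatal markers, and Mfsd2a is the highest of the red members at 0.67.

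Over all 20 libraries, the 10 genes most like Mfsd2a were ranked by Pearson's r of log2 CPM among 15474 genes with a mean of at least 1 CPM. They were Arrdc2 at 0.895, Etnppl at 0.877, Map3k6 at 0.873, Kirrel2 at 0.862, Sult1a1 at 0.861, Dclre1b at 0.859, Ncf1 at 0.859, Klf15 at 0.858, Ddit4 at 0.852 and Fam107a at 0.849. The libraries share their group structure, so these values describe levels across 4 groups and carry no test. Arrdc2, which encodes an arrestin-domain protein, had 12.4 ± 2.09, 13.7 ± 3.01, 28.5 ± 3.58 and 16.9 ± 13.1 CPM in control, ICI, melanoma and melanoma plus ICI mice. Etnppl, an enzyme of phosphoethanolamine breakdown, had 18.4 ± 2.98, 23.2 ± 3.99, 37.9 ± 7.45 and 23.1 ± 13.2 CPM. They were chosen for sharing the pattern of Mfsd2a over these libraries, so their group levels are not separate evidence of it. Within the melanoma plus ICI group, all 10 were highest in replicate 3. None of the 10 was on the endothelial or barrier lists, and 2, Sult1a1 and Ddit4, were on the glucocorticoid and fasting list.

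Slc2a1 ranked 12th among the 15474 genes, with r of 0.818, ahead of every other member. Abcb1a ranked 250th (0.567) and Slc7a5 482nd (0.502), while Bsg lay near the opposite end at rank 15250 (-0.510). The genes least like Mfsd2a were Bco2, a carotenoid-cleaving oxygenase, at -0.776, Sdsl at -0.766 and Parp16 at -0.745. After group means were removed, the highest were Galnt15 at 0.848, Rasgrf2 at 0.843, Fam107a at 0.819, Lrg1 at 0.805 and Hif3a at 0.799, and Slc2a1 came next at 0.798. In melanoma plus ICI replicate 3, the first 5 were at 9.37, 184, 434, 3.56 and 15.6 CPM. Their means over 20 libraries were 3.73, 111, 303, 1.40 and 9.76 CPM, and their r without that library is not given here.

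**Figure D4:**
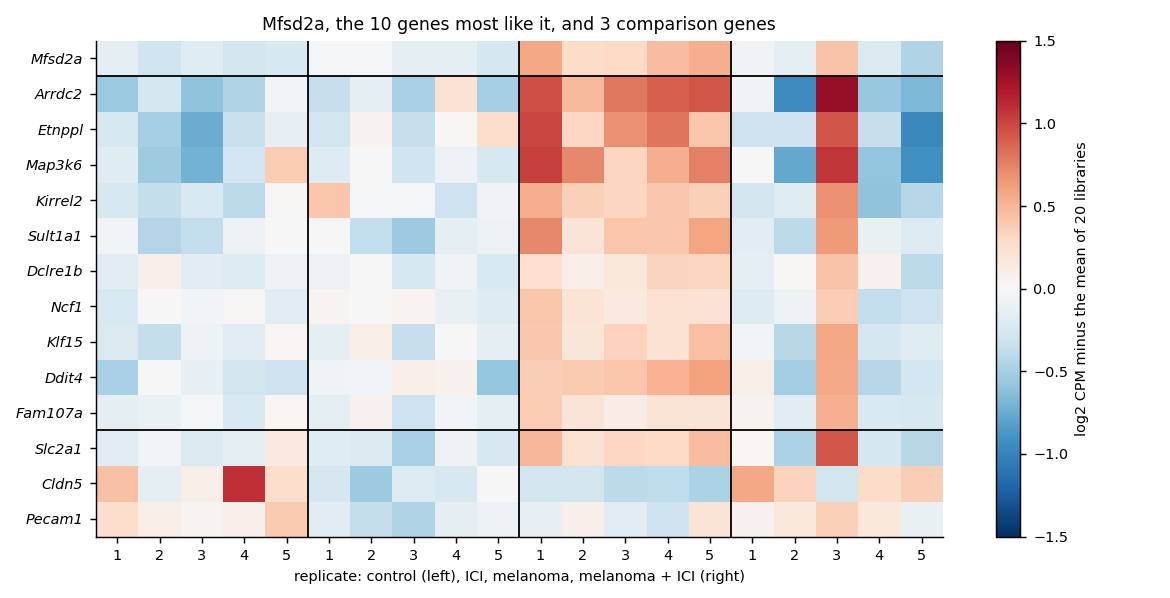
Log2 CPM minus the mean of the 20 libraries (colour, from -1.5 in blue to 1.5 in red) for Mfsd2a, the 10 genes most like it and Slc2a1, Cldn5 and Pecam1 (rows) in each library (columns, by group). Melanoma libraries and melanoma plus ICI replicate 3 are red for the upper 12 genes except where values are near the mean, and Cldn5, at 19.9 to 22.8 CPM in melanoma, is blue there.

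Within groups, where the group differences that led to the choice of Mfsd2a are removed, none of the 9 other members was correlated with it past the threshold. The closest were Slc2a1 (Pearson's r = 0.80, Spearman's rho = 0.56, permutation p = 0.0144, adjusted over 9 relations 0.130) and Slc7a5 (r = 0.58, rho = 0.56, permutation p = 0.0354, adjusted 0.159). The relation with Slc2a1 rested on melanoma plus ICI replicate 3, since r was 0.40 without it and 0.37 without both replicates 3 and 5, the libraries farthest from the median of Mfsd2a. That with Slc7a5 was 0.29 without replicate 3 and 0.54 without both. With the endothelial score removed, Slc2a1 passed (r = 0.77, permutation p adjusted over 9 relations 0.0134), and without melanoma plus ICI replicate 5 Slc7a5 did (r = 0.71, adjusted permutation p 0.0472). With means of the replicate numbers also removed, Slc2a1, Abcb1a and Slc7a5 passed (adjusted permutation p of 0.00135, 0.0436 and 0.0436). The other 7 members had r from -0.45 (Slc16a1) to 0.52 (Abcb1a). Without melanoma plus ICI replicate 3, r was 0.07 for Abcb1a and -0.14 for Slc16a1, and for Slco1a4 it turned from 0.34 to -0.46. Among pairs of the other 9 members, the strongest positive r within groups was 0.79, between Abcb1a and Slc7a5, and the strongest negative was -0.74, between Abcb1a and Slc16a1, both given as a description.

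The endothelial score was correlated with Mfsd2a at r = 0.36 within groups (rho = 0.00, permutation p = 0.265, adjusted over 17 list scores 0.903), and at -0.19 without those 2 libraries. The glucocorticoid and fasting score was at r = 0.74 (rho = 0.55, permutation p = 0.0272, adjusted 0.462), and at 0.35 without them. The striatum score was at 0.44 and the choroid plexus score at -0.01, neither past the threshold.

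**Figure D5:**
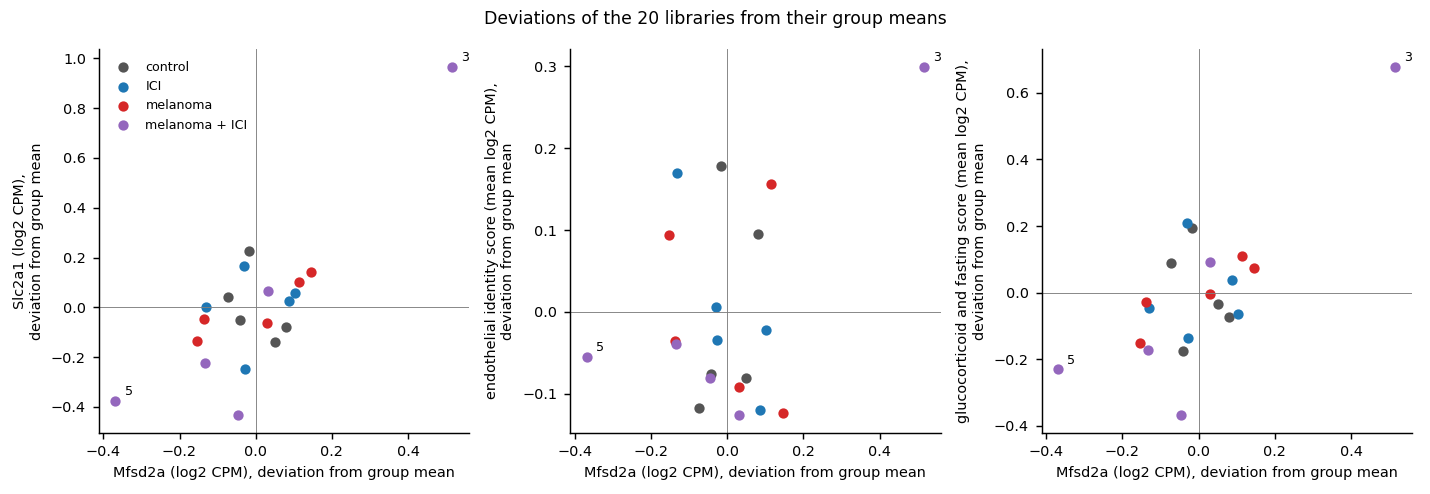
Deviation of each of the 20 libraries from its group mean for Mfsd2a (horizontal axis, log2 CPM) against Slc2a1, the endothelial score and the glucocorticoid and fasting score (vertical axes, log2 CPM); colours are groups, and the numbers mark melanoma plus ICI replicates 3 and 5. With all libraries r is 0.80, 0.36 and 0.74, and without the 2 numbered ones it is 0.37, -0.19 and 0.35.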

How the data were processed

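Per the labels, the deposited values are raw counts per gene from total RNA of single frozen hippocampi, and the files hold 49671 genes with coordinates and length. The submitters' processing notes name STAR 2.5.2b and DESeq2 1.16.1 without a role. How strand and multiply mapped reads were treated, and which annotation was counted, is not given in the sources used here. Of the identifiers, 49412 occur in GENCODE M21 (build GRCm38), and 45214 have the same span there. Symbols came from a separate gene name reference, which gave one for 49326 identifiers. No line named no gene.

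Groups and replicate numbers came from the titles, and no library was left out. Per the labels, the 5 hippocampi of a group came from 5 brains. Within groups, 40 pairs of libraries differed by a chi-square of 7.73 to 84.6 per gene, so none was a duplicate. Of 30 pairs of libraries with the same number, 10 had deviations correlated above 0.1, with r from -0.35 to 0.53. These values do not settle whether the numbers pair the samples, and the main fit assumed no pairing.

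Counts were tested with edgeR 4.0.16 in R 4.3.3 (filterByExpr at 10 counts and a total of 15, TMM factors of 0.955 to 1.04, a robust quasi-likelihood fit of 4 group means to 20 libraries, 6 contrasts, Benjamini-Hochberg within a contrast, threshold 0.05). On simulated data, 33.8% of genes changed by 0.67 on the log2 scale in melanoma against control were called among 18427. SE is the log2 fold change divided by the root of its F statistic. Log2 CPM used a prior count of 2. TPM used the deposited gene lengths. Correlations within groups used 100000 permutations.

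Alternatives were size factors, no filter, DESeq2 1.42.0, limma 3.58.1 voom with library quality weights, only the groups compared, a replicate block, each library left out, 2 libraries that lay apart in an earlier analysis left out, and endothelial and choroid plexus scores as covariates. The striatum score as a covariate, and leaving out the 4 libraries with that score above 5, were added after the data were seen.

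The members and all gene lists were chosen with earlier results of these data known. Named genes are the members, the genes most and least like Mfsd2a (10 and 3 over all libraries, 5 within groups), the 2 highest and 2 lowest genes of each list in melanoma against control at a mean of at least 1 CPM, Cldn5 and Pecam1. Sox18, Egfl7, Abcb1b and the non-overlapping or called members of the glucocorticoid and fasting list were named after their values were seen. The values of 1 gene that this rule names are not reported here.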

Additional observations from a re-analysis of the deposited data

Results flagged for a closer look

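Within groups of 5 libraries, the highest or lowest library was examined for its gap to the next one, for 10 members in 4 groups. Of these 40, 5 had a gap beyond the 95% limit of Dixon's test, where chance alone gives about 1 in 20. In melanoma plus ICI replicate 3, Slc2a1 was at 216 CPM, with the next library at 116 CPM, and Slco1a4 was at 60.2 CPM, with the next at 42.4 CPM. Slc16a1 was at 57.7 CPM in control replicate 4, with the next at 40.2 CPM, and at 31.3 CPM in melanoma replicate 1, with the next at 38.1 CPM. Bsg was at 441 CPM in melanoma replicate 4, with the next at 339 CPM.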

How the results depend on the processing

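By edgeR no gene and no member was called in any contrast with all libraries, so every count below stands against 0. Counts of members include Mfsd2a, whose calls rest on the libraries that led to its choice and support nothing. DESeq2 called 1 gene for ICI against control, 8 genes and 1 member for melanoma against control, 9 genes for melanoma plus ICI against ICI, and 47 genes and 1 member for the interaction. Limma voom called 1 gene, which was also the 1 member, for melanoma against control, 25 genes and 1 member for melanoma plus ICI against melanoma, and 19 genes and 2 members for the interaction. Fitting only the groups compared called 3 genes and 1 member for melanoma against control. The endothelial score as a covariate called 1 gene each for ICI against control, melanoma against control, melanoma plus ICI against melanoma and the interaction. Leaving out the 2 libraries that lay apart called 1 gene for the interaction, and leaving out the 4 rich in striatal transcripts 1 gene for melanoma plus ICI against melanoma. The cause of these differences was not tested.

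With each library left out in turn, calls ranged from 0 to 1 member and 0 to 3 genes for melanoma against control, 0 to 2 members and 0 to 12 genes for melanoma plus ICI against melanoma, and 0 to 1 member and 0 to 11 genes for the interaction. The upper ends came without melanoma plus ICI replicate 3. The interaction of Bsg was called without melanoma replicate 4. Members correlated with Mfsd2a within groups numbered 0 to 1 with each library left out (Slc7a5 without melanoma plus ICI replicate 5), 1 with the endothelial score removed (Slc2a1) and 3 with the replicate block (Slc2a1, Abcb1a and Slc7a5, with r of 0.82, 0.65 and 0.73 and adjusted permutation p of 0.00135, 0.0436 and 0.0436), 0 otherwise. The replicate block changed no call between groups, and 8 of 20 libraries correlated best with their own number.

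Of the 10 member values for melanoma against control, 8 kept their sign in all 31 settings, and Abcg2 and Slc22a8 turned in 5 settings together. Over all 6 contrasts, the sign turned in 130 of 1850 combinations of a member value and a setting. At 297 to 646 counts per library for Mfsd2a, 276 to 484 for Abcg2 and 207 to 689 for Slc22a8, counting error adds to the spread between mice.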
